A study of Mus musculus with 8 samples.

Results

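The connexins and pannexins measured here are 9 channel genes of brain tissue: Gjb6, Gja1 and Gjb2 of astrocytes, Gjb1 and Gjc3 of oligodendrocytes, Gjc1 and Gjd2 of neurons, and the pannexins Panx1 and Panx2. They were found by their symbols in the probe-to-gene table, 9 of the 19321 genes named there. A gene with several probes was to be represented by the one selected on its mean spot intensity over the 8 arrays, but each had 1 probe, so no measured value chose the 9 probes among the 23473 of the array. The tissue was dorsal dentate gyrus, a field of the hippocampal formation, taken from C57BL/6J males aged 8 to 12 weeks. Wild-type (WT) mice were compared with mice lacking Cav3.1 (Cav3.1 KO), the T-type calcium channel subunit encoded by Cacna1g, with 4 arrays in each group and no other treatment in the labels. The labels do not describe how the Cav3.1 allele was made. Since the labels speak of brain slices and name no animals, p-values reflect only the variation among these 8 samples, and some of it may be technical. The gene family was taken up with the difference of Gjb6 already known, so its test is given as a description and is no independent evidence.

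Connexins are membrane proteins that assemble into hemichannels, and hemichannels of adjoining cells dock to form gap junctions, which let ions and small molecules pass from cell to cell. Astrocytes join into a wide network through Gja1 (Cx43) and Gjb6 (Cx30), which spreads potassium, glucose and lactate, while oligodendrocytes use connexins of their own and some neurons form electrical synapses. Pannexins share the membrane layout of connexins but mostly act as single-membrane channels that release ATP. The array measured RNA of mixed tissue, in which fewer cells of a type and less RNA per cell cannot be told apart.

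Gjb6 and Gjb2 lie close together on chromosome 14 and are read from the same strand. Their promoter windows, 250 bases before to 50 bases after the annotated start, are shown beside that of Gja1 because Gjb6 was the only one of these astrocyte genes called. The sequences are from RefSeq on GRCm38.p6. The windows lie at chr14:57133562-57133861 on the minus strand for Gjb6, chr14:57104653-57104952 on the minus strand for Gjb2 and chr10:56377050-56377349 on the plus strand for Gja1. Capitals mark matches, on either strand, to an AP-1 site (TGANTCA), a cAMP response element (TGACGTCA) or a GC box (GGGCGG).
Gjb6 promoter window: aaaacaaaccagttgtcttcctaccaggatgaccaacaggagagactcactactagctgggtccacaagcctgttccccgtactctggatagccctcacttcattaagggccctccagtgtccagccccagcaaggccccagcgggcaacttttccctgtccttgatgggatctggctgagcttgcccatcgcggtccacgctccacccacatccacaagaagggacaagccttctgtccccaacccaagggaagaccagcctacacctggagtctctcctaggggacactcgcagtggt
Gjb2 promoter window: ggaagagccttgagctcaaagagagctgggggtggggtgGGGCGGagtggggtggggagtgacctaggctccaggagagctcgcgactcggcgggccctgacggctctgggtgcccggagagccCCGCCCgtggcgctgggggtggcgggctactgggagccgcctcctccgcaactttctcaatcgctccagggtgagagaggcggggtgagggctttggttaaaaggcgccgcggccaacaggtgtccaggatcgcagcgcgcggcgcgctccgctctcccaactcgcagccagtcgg
Gja1 promoter window: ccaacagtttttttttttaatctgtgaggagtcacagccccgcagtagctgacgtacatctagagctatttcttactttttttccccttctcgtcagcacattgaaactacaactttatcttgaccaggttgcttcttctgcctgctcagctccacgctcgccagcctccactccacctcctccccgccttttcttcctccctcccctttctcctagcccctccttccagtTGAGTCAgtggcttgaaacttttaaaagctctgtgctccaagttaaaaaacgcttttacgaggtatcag

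The Gjb6 window held no match to these motifs, with 6 CpG dinucleotides and a GC content of 57.3%. The Gjb2 window had 27 CpG dinucleotides, a GC content of 70% and 2 GC boxes, at positions -211 and -126 from the start. In the Gja1 window the GC content was 47.7%, there were 8 CpG dinucleotides, and there was an AP-1 match at position -19. Of 32851 promoter windows of this length in the same table, 7.81% held the AP-1 letters, 1.79% the cAMP response element and 35.7% the GC box. Windows were found for 7 of the 9 genes.

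Over the whole array, 21203 probes passed the filter on dim and flagged spots and were tested with limma, and 61 were called at a Benjamini-Hochberg adjusted p below 0.05, or 0.288% (0.198% higher and 0.0896% lower in Cav3.1 KO), while 8.08% had an unadjusted p below 0.05. The mean of the blank spots was 53.0 to 59.7 in the WT arrays and 56.2 to 63.4 in the Cav3.1 KO arrays, and 85.4% to 93.0% of the probes lay above the 95th percentile of the blank spots. The probe for the targeted gene, Cacna1g, had a normalised log2 mean of 6.54 ± 0.081 (SD, n = 4) for WT and 6.46 ± 0.072 for the knockout, with overlapping groups and a limma adjusted p of 0.818. Whether the probe lies in the deleted part is unknown here, so it does not check the genotype labels. The slope that the file headers give between the first and the second scan gain split the arrays into a low set of 3 WT and 1 Cav3.1 KO (0.478 to 0.480) and a high set of 1 WT and 3 Cav3.1 KO (0.485 to 0.486). The arrays also carried chip numbers of 2 series, with 3 arrays of each group in the larger set and 1 of each in the smaller.

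Gjb6, which encodes Cx30, the connexin largely restricted to astrocytes in the brain, was higher in the dentate gyrus of Cav3.1 KO mice and was the only one of the 9 genes called. On the normalised log2 scale it read 9.70, 9.60, 9.69 and 9.53 in WT replicates 1 to 4 and 9.99, 10.09, 9.93 and 10.02 in Cav3.1 KO replicates 1 to 4. Every Cav3.1 KO array lay above every WT array, which held for 4.95% of all probes in either direction 2.42% with Cav3.1 KO above and 2.53% below. The means were 9.63 ± 0.078 and 10.01 ± 0.0651 (SD, n = 4), a difference of 0.38 on the log2 scale (SE 0.0481, 95% interval 0.265 to 0.487), or 1.30-fold. The limma adjusted p was 0.0271, and Gjb6 ranked 37 by p among the probes tested.

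The separation of the groups appeared only after scaling. The spot intensities of Gjb6 before normalisation were 855, 840, 929 and 673 in WT and 832, 1116, 1003 and 1052 in Cav3.1 KO, so Cav3.1 KO replicate 1 lay below 3 of the 4 WT arrays. That array had the lowest probe median of all, 80.9, against 81.5 to 94.3 on the others. In the authors' deposited table, which is scaled to 1 median per array, the Gjb6 values ran from 468 to 556 in WT and from 587 to 680 in Cav3.1 KO, again with no overlap. The probe was well above the blank spots in both groups, at 14.9 times their mean in WT and 16.6 times in Cav3.1 KO.

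The direction of the Gjb6 difference held under all 21 alternatives, but the call did not. The difference was 0.38 among the arrays of the low gain set and 0.32 among those of the high set, and it was 0.39 and 0.33 in the larger and smaller chip sets. The low gain set held 1 Cav3.1 KO array, the high gain set 1 WT array, and the smaller chip set 1 array of each group. With the gain set as a block it was 0.35 (limma adjusted p = 0.110), and with the chip set as a block it was 0.38 (limma adjusted p = 0.0513). Leaving out any single array kept the difference between 0.34 and 0.40 and lifted the limma adjusted p to between 0.0536 and 0.0869, so the call was lost without any one of the 8. Median scaling gave 0.30 (limma adjusted p = 0.411) and the log2 values of the authors' deposited table gave 0.31 (limma adjusted p = 0.511).

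**Figure D1:**
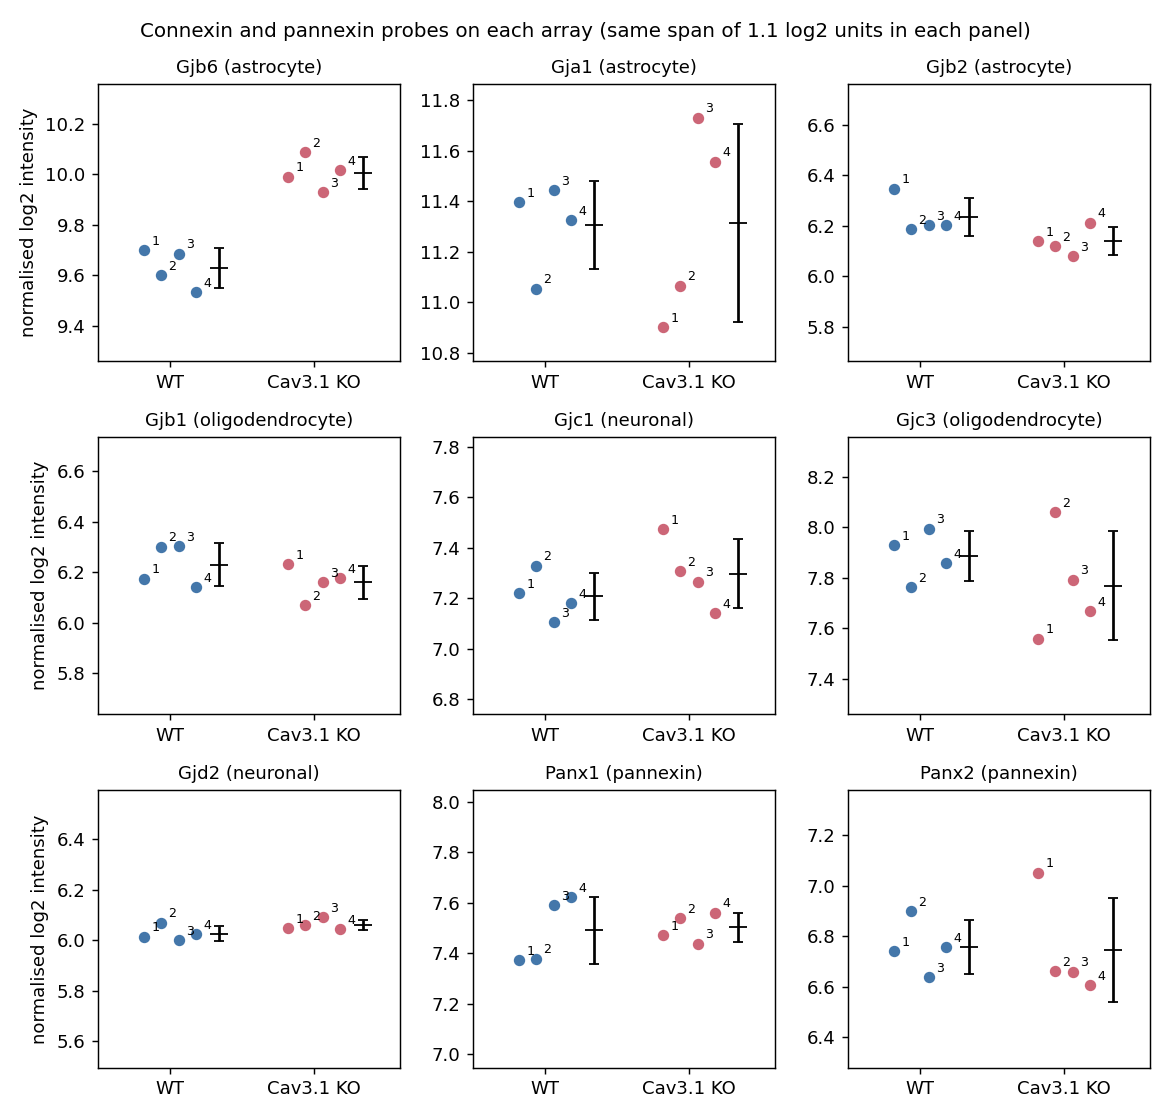
Normalised log2 intensity (vertical axes) of the 9 connexin and pannexin probes on the 4 WT and 4 Cav3.1 KO arrays (horizontal axes). Points are arrays, numbered by replicate, and bars are the mean ± SD; the scale differs between panels but each spans the same distance. Gjb6 is the only panel in which the groups do not overlap, and Gja1 has the widest spread, from 10.90 to 11.73.

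Gja1, which encodes Cx43, the main astrocyte connexin, did not pass the test, and it varied more between arrays than any other of the 9 genes. Its normalised log2 intensity was 11.39, 11.05, 11.44 and 11.32 in WT and 10.90, 11.07, 11.73 and 11.56 in Cav3.1 KO. The Cav3.1 KO arrays held both the lowest value, on replicate 1, and the highest values, on replicates 3 and 4, and so enclosed the WT range. The means were 11.30 ± 0.174 and 11.31 ± 0.393 (SD, n = 4), and the difference of 0.0089 had an interval of -0.418 to 0.436, which includes a change as large as that of Gjb6 in either direction. Its sign turned with median scaling (-0.10) and in the authors' deposited table (-0.11). Of all probes tested, 99.0% had a smaller spread within groups than Gja1, while Gjb6 stood near the middle at 52.5%.

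Gjb2 encodes Cx26, which in the brain is best known from the leptomeninges and from some astrocytes. The normalised log2 values of Gjb2 were 6.35, 6.18, 6.20 and 6.20 in WT and 6.14, 6.12, 6.08 and 6.21 in Cav3.1 KO. WT replicate 1 was the highest array, and Cav3.1 KO replicate 4 lay within the WT range. The difference was -0.096 (SE 0.0451, 95% interval -0.200 to 0.00774, limma adjusted p = 0.667), opposite in sign to that of the neighbouring Gjb6. The spot was dim, at 1.42 times the blank mean in WT and 1.29 times in Cav3.1 KO, and the offset of the background correction compresses such a probe. After subtraction of the blank mean the difference was -0.35, with a wider error (SE 0.152, limma adjusted p = 0.695). The size of a change of Gjb2 was therefore not well measured. The 12 markers of meningeal fibroblasts also lay mostly lower, 10 of 12 with a median of -0.11. Of the 12, 1 had an unadjusted limma p below 0.05, against 8.08% of all probes, and none was called. The mean of these markers ran from 6.62 to 7.02 in WT and from 6.58 to 6.85 in Cav3.1 KO. Their part in the Gjb2 values was not tested.

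The oligodendrocyte connexins Gjb1 and Gjc3 both had lower means in Cav3.1 KO, and neither passed the test. Gjb1 encodes Cx32, found in myelin and at junctions between oligodendrocytes and astrocytes. Its normalised log2 intensity was 6.17, 6.30, 6.30 and 6.14 in WT and 6.23, 6.07, 6.16 and 6.18 in Cav3.1 KO, with overlapping groups and a difference of -0.070 (SE 0.0506, limma adjusted p = 0.876). This spot too was close to background, at 1.42 and 1.30 times the blank mean.

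Gjc3 encodes Cx29, a protein of myelinating cells that is placed along myelin rather than in classical junctions. On the normalised log2 scale Gjc3 read 7.93, 7.76, 7.99 and 7.86 in WT and 7.56, 8.06, 7.79 and 7.67 in Cav3.1 KO. Cav3.1 KO replicate 2 was the highest array and Cav3.1 KO replicate 1 the lowest, so the groups overlapped over the whole WT range. The difference was -0.12 (SE 0.104, 95% interval -0.355 to 0.122, limma adjusted p = 0.930). The mean of 22 oligodendrocyte markers other than connexins was likewise highest on replicate 2 and lowest on replicates 1 and 4 of Cav3.1 KO, at 8.89, 9.34, 9.10 and 8.88 on replicates 1 to 4 against 9.03 to 9.25 in WT. Of these 22 markers, 16 were lower, 3 had an unadjusted limma p below 0.05, against 8.08% of all probes, and none was called. The part of these markers in the Gjc3 values was not tested.

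Neither neuronal connexin passed the test. Gjc1 encodes Cx45, which occurs in some neurons and in vessel walls. Its normalised log2 intensity was 7.22, 7.33, 7.10 and 7.18 in WT and 7.47, 7.31, 7.27 and 7.14 in Cav3.1 KO; the difference was 0.089 (SE 0.0741, limma adjusted p = 0.920). The highest array was Cav3.1 KO replicate 1, and the other Cav3.1 KO arrays lay inside the WT range. Within the gain sets the Gjc1 difference was 0.23 in the low set and 0.13 in the high set, each with a single array on one side.

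Gjd2 encodes Cx36, the connexin of most electrical synapses in the mammalian brain, including those between interneurons. Normalised log2 values of Gjd2 were 6.01, 6.07, 6.00 and 6.02 in WT and 6.05, 6.06, 6.09 and 6.04 in Cav3.1 KO; the difference was 0.034 (SE 0.0259, 95% interval -0.0258 to 0.0932, limma adjusted p = 0.891). At 1.23 times the blank mean in both groups it was the dimmest of the 9 spots relative to background, and 8.82% of probes varied less within groups. After subtraction of the blank mean its difference was 0.17 (SE 0.104, limma adjusted p = 0.823), so a change of Gjd2 was not well measured here. The mean of 12 interneuron markers ran from 7.98 to 8.14 in WT and from 7.96 to 8.23 in Cav3.1 KO. Of the 12, 2 had an unadjusted limma p below 0.05, against 8.08% of all probes, and none was called.

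Neither pannexin passed the test. Panx1, an ATP release channel found in neurons and glia, had normalised log2 values of 7.37, 7.38, 7.59 and 7.62 in WT and 7.47, 7.54, 7.44 and 7.56 in Cav3.1 KO. All Cav3.1 KO arrays lay inside the WT range, and the difference was 0.012 (SE 0.0659, 95% interval -0.140 to 0.163, limma adjusted p = 0.996). Its sign turned under median scaling (-0.016) and in the authors' deposited table (-0.040).

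Panx2, a pannexin expressed largely in neurons, had normalised log2 values of 6.74, 6.90, 6.64 and 6.76 in WT and 7.05, 6.66, 6.66 and 6.61 in Cav3.1 KO. A single array, Cav3.1 KO replicate 1, was far above the other 3 of its group, which lay at or just below the lower end of the WT range. The difference was -0.014 (SE 0.102, 95% interval -0.248 to 0.221, limma adjusted p = 0.998), and it was 0.13 with the gain set as a block (limma adjusted p = 0.587).

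Across the family, 1 of the 9 genes was called, against 0.288% of all probes tested, and that gene was the one whose difference was known when the family was taken up. The 9 probes were all detected on all 8 arrays, so none entered the test through 1 group alone. The mean was higher in Cav3.1 KO for 5 of the 9 and lower for 4, with a median difference of 0.0089, beside 49.3% higher and a median of -0.000773 over all probes tested. Apart from Gjb6 the differences ran from -0.12 for Gjc3 to 0.089 for Gjc1, and the 95% interval ended below the 0.38 of Gjb6 for each of them but Gja1, on a scale that is compressed for the dim Gjb2, Gjb1 and Gjd2. The signs of Gja1, Panx1 and Panx2 turned under some alternatives.

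**Figure D2:**
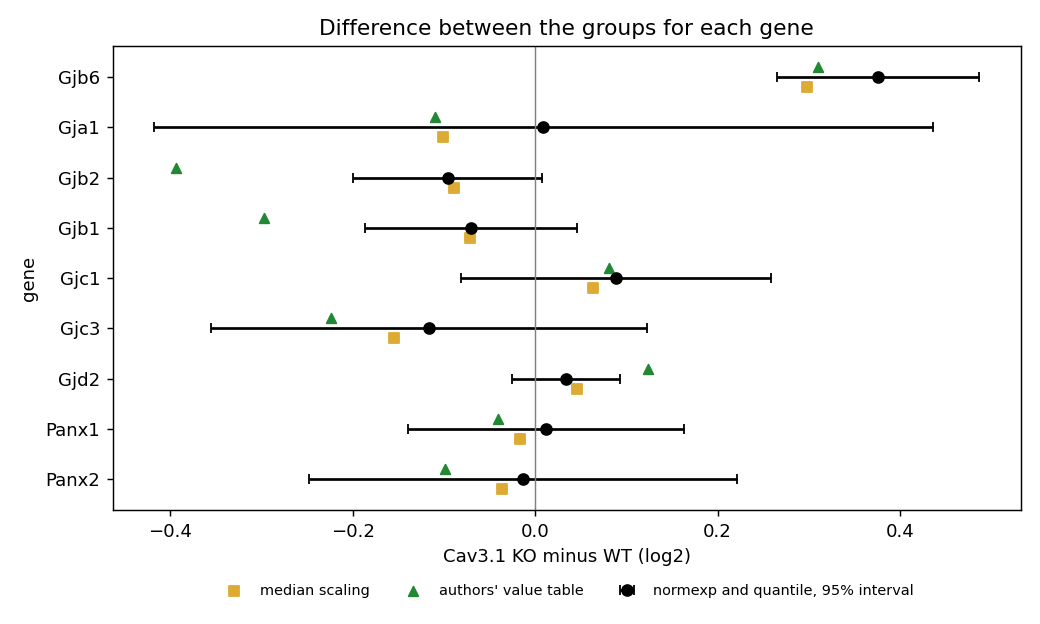
Cav3.1 KO minus WT (horizontal axis, log2) for each gene (vertical axis): black points and bars are the estimates with 95% intervals, yellow squares the values after median scaling, green triangles those from the authors' deposited table. The interval of Gjb6 (0.265 to 0.487) lies clear of 0 and the others cross it; the table's values depart most for the dim probes of Gjb2 and Gjb1.

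To ask whether Gjb6 differed by another amount than its fellow channels, the log2 value of each was subtracted from that of Gjb6 on the same array. All 8 pairs share the Gjb6 values, whose separation was known beforehand, so they describe that separation again and are not separate evidence. Against Gjb2, Gjb1, Gjc3, Gjd2 and Panx1 the shift of Gjb6 was 0.47, 0.45, 0.49, 0.34 and 0.36, and in each of these 5 pairs every Cav3.1 KO array lay above every WT array. As a description, the exact two-sided permutation p was 0.0286 for each, the smallest that 70 arrangements can give, and 0.0457 after Benjamini-Hochberg adjustment over 8 pairs. Against Gjc1 the shift was 0.29 (exact permutation p = 0.0571, adjusted 0.0762) and against Panx2 it was 0.39 (exact permutation p = 0.0857, adjusted 0.098), with overlapping groups in both pairs. The shifts moved with the scaling: with median scaling they were 0.39 for Gjb2, 0.37 for Gjb1 and 0.25 for Gjd2. No pair passed after adjustment with blank subtraction, median scaling or the authors' deposited table, or when any one of WT replicates 3 and 4 or Cav3.1 KO replicates 2, 3 and 4 was left out. Without Cav3.1 KO replicate 1, Panx1 no longer passed (adjusted exact permutation p = 0.0653) and Panx2 did (0.50, adjusted exact permutation p = 0.0457).

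Against Gja1, its partner in the astrocyte network, the shift of Gjb6 was 0.37 and did not pass (exact permutation p = 0.257). Gjb6 minus Gja1 was -1.70, -1.45, -1.76 and -1.79 in WT and -0.91, -0.98, -1.80 and -1.54 in Cav3.1 KO. The first 2 Cav3.1 KO arrays lay above all WT arrays and the other 2 within or just below the WT range. Whether the 2 astrocyte connexins differed in their response was not resolved with 4 arrays a group.

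**Figure D3:**
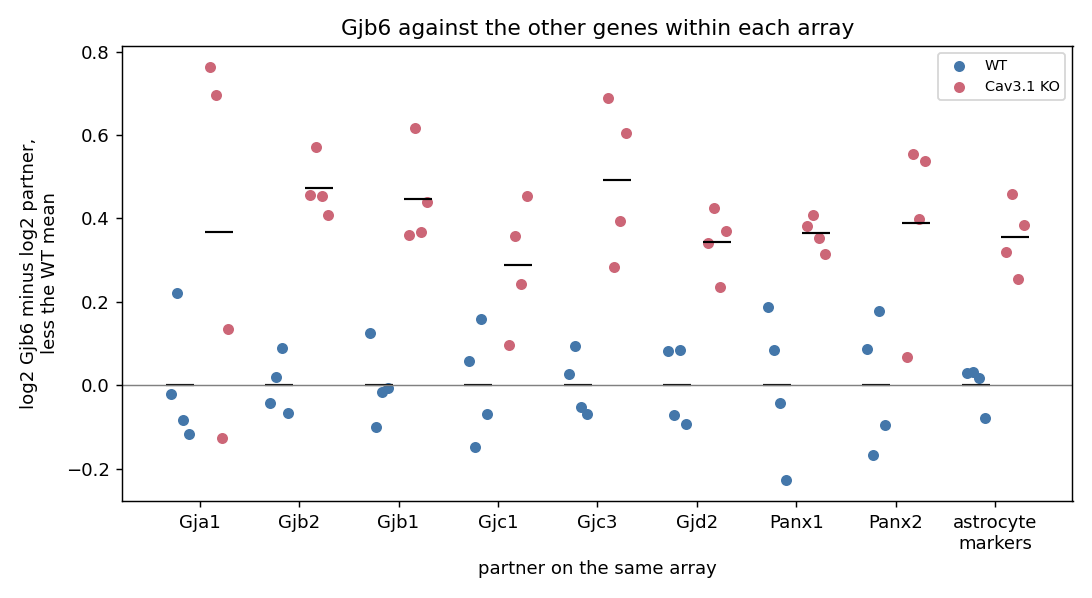
Log2 Gjb6 minus log2 of a partner on the same array, less the WT mean of that difference (vertical axis), for each other gene and for the mean of 29 astrocyte markers (horizontal axis). Blue points are WT arrays, red points Cav3.1 KO arrays and bars group means; the groups separate for Gjb2, Gjb1, Gjc3, Gjd2, Panx1 and the astrocyte markers, and overlap for Gja1, Gjc1 and Panx2.

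The astrocyte content of the samples was followed with 29 markers that include no connexin. None of them was called, 14 were higher and 15 lower, and their median difference was -0.0011. Of the 29, 4 had an unadjusted limma p below 0.05, against 8.08% of all probes. These were Agt (0.50, SE 0.192), Slc39a12 (0.20) and Chrdl1 (0.062), which were higher, and Ntsr2 (-0.16), which was lower. Groups did not overlap for 3 of the 29, Slc39a12, Chrdl1 and Ntsr2, against 4.95% of all probes. A higher mean in Cav3.1 KO was thus not particular to Gjb6 among astrocyte genes. The mean of the 29 markers ran from 8.69 to 8.79 in WT and from 8.75 to 8.79 in Cav3.1 KO. Gjb6 minus this mean was 0.908, 0.912, 0.898 and 0.801 in WT and 1.199, 1.34, 1.14 and 1.26 in Cav3.1 KO. The shift of 0.35 separated the groups (exact permutation p = 0.0286, again from the same Gjb6 values). Gjb6 minus the median level of the markers on each array shifted by 0.17 (exact permutation p = 0.114). That median is the value of the 1 marker of middle level on an array. It therefore follows single genes and does not summarise the differences of the 29. Single genes can move the mean too, in which Glul and Agt each differed by 0.50. Whether Gjb6 shifted against the astrocyte markers thus depended on the summary used. Glul, the glutamine synthetase of astrocytes, was far lower on WT replicate 2 than on the other arrays. Without Glul the shift against the mean was 0.37.

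Array by array, the deviations from each gene's own mean split by group for Gjb6 and for no other of the 9 genes. Gja1 was low on WT replicate 2 and on Cav3.1 KO replicates 1 and 2, at -0.25, -0.41 and -0.24 from its mean, and it was 0.42 above its mean on Cav3.1 KO replicate 3. Panx2 and Gjc1 were highest on Cav3.1 KO replicate 1, at 0.30 and 0.22 above their means, where Gja1 and Gjc3 were lowest.

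**Figure D4:**
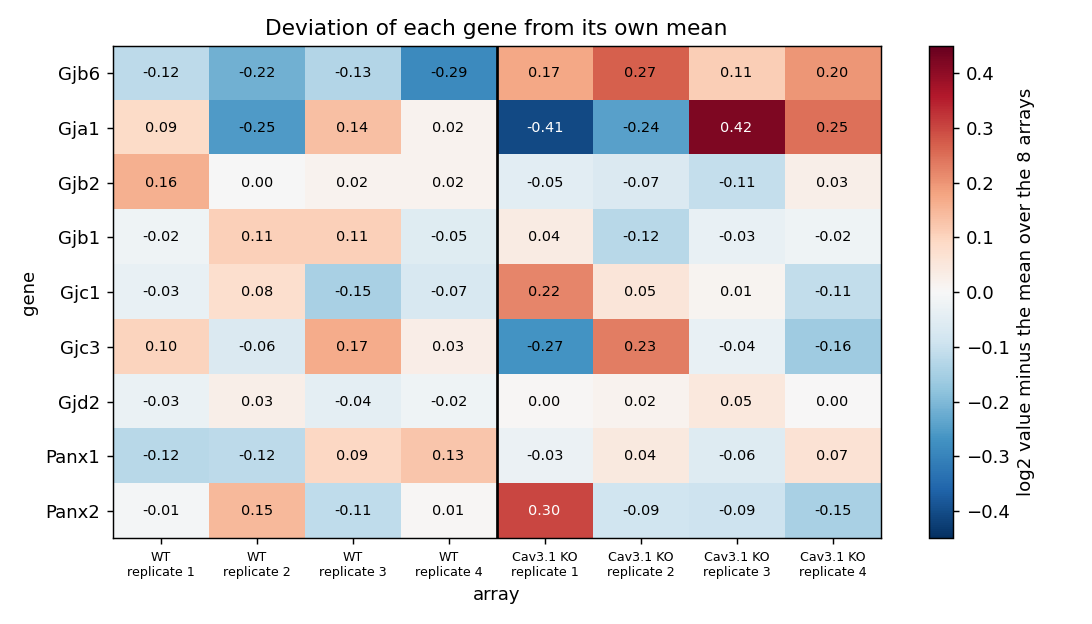
Log2 value of each gene (vertical axis) on each array (horizontal axis) minus its own mean over the 8 arrays, as colour and as printed number, red above and blue below. The row of Gjb6 changes sign at the line between WT and Cav3.1 KO, with WT at -0.12 to -0.29 and Cav3.1 KO at 0.11 to 0.27, and no other row does.

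The genes whose centred values lay closest to those of Gjb6 over the 8 arrays came from outside the family. By mean absolute distance on the log2 scale, among 17572 genes with an established symbol, these were Gimap6 (0.0357), Smim3 (0.0487), Maff (0.0494), Ada (0.0561) and Trp53inp1 (0.0627). Gimap6 encodes a GTPase of lymphocytes, Maff a small Maf transcription factor, Ada adenosine deaminase and Trp53inp1 a p53-inducible nuclear protein. Their differences of 0.33, 0.32, 0.31, 0.37 and 0.38, in that order, and the absence of overlap between the groups (4.95% of all probes) follow from their having been picked for likeness to Gjb6. The other channels lay at distances of 0.16 for Gjc1 to 0.28 for Gja1, around the median of 0.191 over all these genes.

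The measured genes that flank Gjb6 gave no call. Of the 10 genes that flank Gjb6 in the RefSeq table, 4 had a probe and 3 were tested. The flanking connexin gene Gja3, known from the lens, differed by -0.024 (SE 0.026, limma adjusted p = 0.959), and Cryl1, which encodes an L-gulonate dehydrogenase, by -0.18 (SE 0.124, limma adjusted p = 0.865). Together with Gjb2 all 3 had lower means in Cav3.1 KO, and 0 were called by limma or had an unadjusted p below 0.05. B020004C17Rik was detected on 2 arrays and was not tested.

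Among 14 further connexin and pannexin genes of the mouse, most of them known from lens, skin, vessels or heart, 10 had a probe, 8 passed the filter, and 0 were called by limma or had an unadjusted p below 0.05. Their median difference was 0.018, with 6 higher and 2 lower. The smallest p-values belonged to Gjd3 (-0.075, SE 0.040, limma adjusted p = 0.735) and Panx3 (0.027, SE 0.025, limma adjusted p = 0.936). Gja10 and Gje1 were detected on 2 and 0 arrays and were not tested.

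The proteins that hold and regulate gap junctions gave no call either. Of 18 scaffold, trafficking and kinase genes tested, 6 were higher and 12 lower, with a median of -0.020. An unadjusted limma p below 0.05 was found for 2 of the 18, against 8.08% of all probes. Camk2a and Prkca, 2 kinases whose families phosphorylate connexins, came first by p at -0.30 (SE 0.090, limma adjusted p = 0.360) and -0.29 (SE 0.096, limma adjusted p = 0.421). Tjp1, the ZO-1 scaffold that binds the tail of Gja1, stood at -0.034.

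Other large-pore channels, ATP receptors and ATP-degrading enzymes, which meet the ATP that hemichannels and pannexins release, also held no call among 19 genes tested. Of these, 14 were higher and 5 lower, with a median of 0.020. An unadjusted limma p below 0.05 was found for 5 of the 19, against 8.08% of all probes. The lowest p-values were those of P2ry13 (-0.42, SE 0.082, limma adjusted p = 0.121) and P2ry12 (-0.34, SE 0.099, limma adjusted p = 0.332), both ADP receptors of microglia. All 16 microglia markers tested, P2ry12 among them, had lower means in Cav3.1 KO, with a median of -0.11, while 49.3% of all probes were higher. Of the 16, 5 had an unadjusted limma p below 0.05, against 8.08% of all probes, and none was called. The mean of these markers ran from 7.92 to 8.16 in WT and from 7.88 to 7.97 in Cav3.1 KO. Their part in the values of the ADP receptors was not tested.

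In the potassium, glutamate, water and metabolite partners of the astrocyte network, 1 of 16 genes tested was called, against 0.288% of all probes: Slc2a1, the glucose transporter of the blood-brain barrier and astrocyte end-feet, which rose by 0.91 (SE 0.067, limma adjusted p = 0.00192). The others ranged around a median of 0.010, with 10 of the 16 higher. Kcnj16, an inward-rectifier potassium channel subunit, was next by p at 0.25 (SE 0.097, limma adjusted p = 0.551), while Aqp4 and Slc1a3 stood at 0.0039 and 0.019. Kcnj10, the main potassium channel of astrocytes, was above the blank spots on 5 of 8 arrays, so its 0.0095 is hardly a measurement. Slc2a1 is abundant in endothelium as well as in astrocytes. Of 14 endothelial markers 10 were lower and 4 had an unadjusted limma p below 0.05, against 8.08% of all probes. Limma called 1 of them, against 0.288% of all probes. It was the tight junction gene Cldn5, which fell by 0.79 (SE 0.092, limma adjusted p = 0.0183). Both lists, like the others here, were chosen with earlier results of these data known. Their counts of called genes are therefore descriptions and show no enrichment.

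Markers of tissue next to the dentate gyrus differed between arrays of both groups. The mean of 16 thalamus and habenula markers reached 7.26 and 7.27 in knockout replicates 2 and 3, with 6.68 and 6.65 in knockout replicates 1 and 4, and ran from 6.53 to 6.995 in WT. Of these markers 13 had higher means in Cav3.1 KO and 3 lower, 1 had an unadjusted limma p below 0.05 and none was called; that 1 was Slc17a6, a vesicular glutamate transporter, at 0.95 (SE 0.300, limma adjusted p = 0.382) with no overlap of the groups. Without the 2 knockout arrays highest in these markers the Gjb6 difference was 0.38, with a limma adjusted p of 0.156 on fewer arrays. The choroid plexus markers ran from 6.89 to 8.29 in WT and from 6.26 to 8.13 in Cav3.1 KO, with 9 of 10 lower, and the ependymal markers from 6.86 to 7.22 and from 6.40 to 7.49, with 5 of 6 lower. In both lists limma called 0, and 0 had an unadjusted p below 0.05. Of 9 markers of dentate granule cells, 5 had an unadjusted limma p below 0.05, against 8.08% of all probes tested. Groups did not overlap for 5, against 4.95% of all probes. Limma called 1, against 0.288% of all probes: C1ql2 at -0.57 (SE 0.051, limma adjusted p = 0.00653). The other 4 whose groups did not overlap were Trpc6 (-0.57), Lct (-0.25) and Plk5 (-0.19), which were lower, and Calb1 (0.34), which was higher, and none of these 4 was called. The part of these lists in the channel values was not tested.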

How the data were processed

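Each of the 8 arrays is a single-colour TORAY chip hybridised with Cy5-labelled amplified RNA, per the labels' protocols. The deposited scanner output holds 1 median intensity a spot and its flags at 3 scan gains, per the file headers; no source used here says how the gains were combined. The authors' value table holds a linear intensity with a median of 25 per array, linear in the scanner intensity and 0 near each array's blank mean. The column headed as background followed the spot brightness (r of the logarithms 0.994 to 0.996) and was not subtracted.

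From the spot intensities, normexp (offset 50, control spots included) and quantile normalisation gave log2 values (R 4.3.3, limma 3.58.1), so fold changes of dim probes are compressed. Probes above the 95th percentile of the blank spots on at least 4 arrays were tested, which left out 2239 dim probes, and 31 were left out as flagged at every gain. The test was limma (lmFit, eBayes) with Benjamini-Hochberg adjustment over 21203 probes. A run of the fit on simulated data checked only the code. It used independent noise for each probe and no gain or chip effects, so it lends no support to any call here. Within-array differences used exact permutation of the 70 arrangements. Gene names came from the platform's probe table, and 2783 probes had no symbol.

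The genes and lists were chosen with earlier results of these data known. Named are the 9 genes, each list's called genes and the 2 with the smallest p, the measured neighbours of Gjb6, its 5 nearest genes by distance, and called genes of the marker lists. Tjp1, Kcnj10, Aqp4, Slc1a3, Glul, Agt, Slc39a12, Chrdl1, Ntsr2, Slc17a6, Trpc6, Lct, Plk5 and Calb1 were named after their values were seen. Alternatives changed the background correction, normalisation, filter, blocks, moderation and arrays used. The number of arrays limits the precision.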

Additional observations from a re-analysis of the deposited data

Results flagged for a closer look

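Among the 18 sets of 4 values formed by the 9 genes in each group, 2 held an array far from the other 3 by Dixon's criterion for 4 values, where chance alone marks about 1 in 20 such sets. WT replicate 1 had a normalised log2 intensity of 6.35 for Gjb2, and the nearest WT array was at 6.20, a gap of 0.899 of the range. Cav3.1 KO replicate 1 stood at 7.05 for Panx2, and the nearest array of its group was at 6.66, a gap of 0.875 of the range.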

How the results depend on the processing

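The direction of Gjb6 held under all 21 alternatives (0.30 to 0.40, limma adjusted p 0.0257 to 0.511) and its call under 4: no background correction, no filter, detection on all 8 arrays, and no spot flagged at any gain. The call was lost, leaving 0 of the 9 genes called by limma (1 or 2 of 9 at an unadjusted p below 0.05, Gjb6 in each case), with blank subtraction (0.40, adjusted p = 0.191), median scaling (0.30), the authors' deposited table (0.31), the chip set as a block (0.38), the larger chip set alone (0.39, adjusted p = 0.232), trend and robust moderation (0.38, adjusted p = 0.0703), without Cav3.1 KO replicates 2 and 3 (0.38), and the gain set as a block (0.35). Leaving out 1 array gave 0.34 to 0.40 and 0 genes in all 8 cases. The cause was not tested, though the larger chip set and the fits without arrays have fewer samples. The gain block, the stricter flag rule and the list without Glul were chosen after seeing the data.

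No pairing by replicate number was visible: deviations of same-numbered arrays correlated at -0.11, -0.08, -0.07 and 0.01, and 0 of 4 correlated best with its own number. With only 4 numbers this check cannot exclude a pairing. With the replicate block Gjb6 kept 0.38 (limma adjusted p = 0.195), with 0 of the 9 genes and 8 probes called.

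Probes called, 61 here, numbered 36 with median scaling, 34 with the authors' deposited table, 7 in the larger chip set, 17 without Cav3.1 KO replicates 2 and 3, 23 with the gain block, 81 with trend and robust moderation, where Gjb6 lost its call, and 16 to 49 with 1 array left out. The 5 pairs of Gjb6 with another channel that passed became 0 with blank subtraction, median scaling and the authors' deposited table, and numbered 0 to 5 with 1 array left out, not always the same 5. They were also 0 in the larger chip set and without Cav3.1 KO replicates 2 and 3, where no pair could pass, since the smallest exact permutation p is 0.1 and 0.0667; there the Gjb2 shift was 0.52 and 0.44. The shift against astrocyte markers was 0.17 with their median level (exact permutation p = 0.114), which on each array is the value of 1 marker. Against their mean it was 0.35 in the larger chip set (exact permutation p = 0.1, the smallest possible). It was 0.36 without Cav3.1 KO replicates 2 and 3 (exact permutation p = 0.0667, the smallest possible) and 0.32 to 0.39 with 1 array left out.

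Gja1, Panx1 and Panx2, none of them called, changed sign. Gja1 gave -0.10 with median scaling, -0.11 in the authors' deposited table, -0.024 in the larger chip set, -0.075 without Cav3.1 KO replicates 2 and 3, -0.17 with the gain block and -0.13 to 0.14 with 1 array left out. Panx1 gave -0.016, -0.040 and -0.032 with median scaling, the deposited table and the gain block, and -0.028 to 0.056 with 1 array left out. Panx2 gave 0.071 without Cav3.1 KO replicates 2 and 3, 0.13 with the gain block and -0.12 to 0.033 with 1 array left out. Other probes of a gene could not be tried, as each has 1. Gjb2, Gjb1 and Gjd2 lay near the blank spots, which limits what their values show.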
